A study of Mus musculus with 10 samples.

Results

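The cytochrome P450 genes were examined in both ventricles of the mouse heart, right (RV) and left (LV), and in the septum between them. The members were chosen by name: every probe on the array whose RefSeq accession belonged to a gene with a symbol of Cyp and a digit was taken. These were 122 probes for 101 genes, out of 22911 genes with a symbol on the array. A gene was tested if the scanner software had flagged a probe of it as well above background throughout 1 or more of the regions. This held for 40 of the 101 genes, out of 14650 genes tested in all. All samples were hearts of C57BL/6N mice with no treatment or altered gene named in the labels, cut into the 3 regions, frozen and powdered, and the ages of the mice are not given in the sources used here. There were 4 RV, 3 LV and 3 septum samples, each on its own 1-colour Agilent array. The design text says that different individuals served for each experiment, but the labels do not tie samples to animals, so a p-value here measures the spread between these samples.

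Cytochrome P450 enzymes are haem proteins that insert oxygen into small molecules. Those of the endoplasmic reticulum take electrons from the reductase Por, and those of mitochondria from ferredoxin. Families named Cyp1 to Cyp3 act mainly on foreign compounds, arachidonic acid and steroids, Cyp4 enzymes hydroxylate fatty acids, and higher-numbered families make or clear sterols, steroid hormones, vitamin D and retinoic acid. The liver holds most of the drug-metabolising forms, whereas the heart is known for epoxygenases and hydroxylases that turn arachidonic acid into vasoactive lipids.

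The 6 genes that were called between RV and another region were Cyp2e1, Cyp2s1, Cyp1b1, Cyp4b1, Cyp2b9 and Cyp2b10. Their upstream sequences are shown because these genes moved in opposite directions, and because 4 of the 6 lie on chromosome 7. Each line gives the 250 bases before the RefSeq start of the gene, 5′ to 3′ on the strand of the gene. The sequences are credited to RefSeq, build GRCm38.p6. Capitals mark matches on either strand to 1 of 6 short motifs: the dioxin response core GCGTG, the CCAAT box, the TATA box searched as TATAAA, the nuclear receptor hexamer AGGTCA, the GC box GGGCGG and the C/EBP-type TTGCNNAA. They run over chr7:140763569-140763818 (plus strand) for Cyp2e1, chr7:25816526-25816775 (minus strand) for Cyp2s1 and chr17:79715062-79715311 (minus strand) for Cyp1b1. Those of Cyp4b1, Cyp2b9 and Cyp2b10 are chr4:115647722-115647971 (minus strand), chr7:26173159-26173408 (plus strand) and chr7:25897408-25897657 (plus strand).
Cyp2e1: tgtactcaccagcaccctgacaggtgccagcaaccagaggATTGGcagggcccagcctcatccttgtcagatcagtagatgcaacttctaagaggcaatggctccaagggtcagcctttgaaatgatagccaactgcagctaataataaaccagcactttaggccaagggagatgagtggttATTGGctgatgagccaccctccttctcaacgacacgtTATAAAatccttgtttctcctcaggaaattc
Cyp2s1: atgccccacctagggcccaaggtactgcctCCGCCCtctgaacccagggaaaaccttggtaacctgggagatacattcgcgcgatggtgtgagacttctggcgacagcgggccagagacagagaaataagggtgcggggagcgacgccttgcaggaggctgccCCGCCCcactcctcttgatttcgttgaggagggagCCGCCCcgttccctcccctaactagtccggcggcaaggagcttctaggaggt
Cyp1b1: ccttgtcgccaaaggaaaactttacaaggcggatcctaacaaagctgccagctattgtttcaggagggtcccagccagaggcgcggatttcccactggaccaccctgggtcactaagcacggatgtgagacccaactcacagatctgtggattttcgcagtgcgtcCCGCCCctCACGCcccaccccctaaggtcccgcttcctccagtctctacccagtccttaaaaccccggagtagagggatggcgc
Cyp4b1: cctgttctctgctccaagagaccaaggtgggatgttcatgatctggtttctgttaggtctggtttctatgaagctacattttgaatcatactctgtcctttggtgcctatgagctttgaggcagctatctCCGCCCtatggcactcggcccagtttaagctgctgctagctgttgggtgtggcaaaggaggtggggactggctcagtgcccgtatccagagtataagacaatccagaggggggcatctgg
Cyp2b9: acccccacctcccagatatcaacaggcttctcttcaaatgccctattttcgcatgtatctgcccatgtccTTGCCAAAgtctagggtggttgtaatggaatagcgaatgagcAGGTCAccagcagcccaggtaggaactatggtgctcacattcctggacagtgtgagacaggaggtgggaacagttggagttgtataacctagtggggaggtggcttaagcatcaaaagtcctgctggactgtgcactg
Cyp2b10: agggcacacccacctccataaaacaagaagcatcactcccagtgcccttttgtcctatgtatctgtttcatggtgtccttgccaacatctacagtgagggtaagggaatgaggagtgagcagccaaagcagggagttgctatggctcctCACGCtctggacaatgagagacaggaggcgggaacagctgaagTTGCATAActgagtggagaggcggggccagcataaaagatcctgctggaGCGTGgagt

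The motifs were counted in a window that also took in 50 bases after the start, over 32851 RefSeq promoters. Of the tested P450 genes 31 had a promoter among these. A P450 gene was counted for a motif if any of its promoters held it, whereas the shares of all promoters count each promoter by itself. A TATAAA lay 31 bases before the start of Cyp2e1, alone among the 6 genes, and 13.6% of all promoters held this motif. The GC box was found before Cyp2s1, Cyp1b1 and Cyp4b1, the 3 genes that were higher in RV than in septum, and in 35.7% of all promoters. TTGCNNAA was found before Cyp2b9 and Cyp2b10, the 2 genes that were called lower in RV than in LV, and in 10.8% of all promoters. Cyp2b9 met the background rule for testing in LV and septum only. Of the 31 tested P450 genes with a promoter, 14 held the GC box, 6 held TTGCNNAA and 9 held TATAAA, so most of these were uncalled genes. The dioxin response core stood before Cyp1b1 and Cyp2b10 and in 32.4% of all promoters, the hexamer before Cyp2b9 and in 16.3%, and CCAAT in Cyp2e1 and Cyp2b10 and in 37.4%. Aligned over their length, the Cyp2b9 and Cyp2b10 sequences had 187 identical bases in 262 columns (71.4%). These matches describe the sequences, and binding was not measured.

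The level of a gene is the log2 processed signal of its brightest probe minus the 75th percentile of that array, so that a level of 0 equals this percentile and a difference of 1 is a factor of 2. Levels of different probes were not compared with each other. The share of spots well above background was 53.7% to 64.0% per array, and no spot was saturated. The arrays lay on 2 slides, each scanned as 1 unit: slide 1 held replicates 1 and 2 of each region, and slide 2 held RV 3, RV 4, LV 3 and septum 3. Of 9 cardiomyocyte markers, all of them measured, 0 were called between RV and LV or between RV and septum. With the slide as a block Actc1, Ryr2 and Ttn were lower in RV than in LV, and Ttn than in septum, and the list's mean centred level was -0.11 to 0.17 over the 10 arrays. Of 6 hepatocyte markers 5 did not pass the filter, among them Alb, Apoa1 and Ttr. Of 7 markers of atrial muscle 6 passed and 1, Dkk3 (3.08), was called higher in RV than in LV. Nppa went the other way, at -2.21 against LV and -2.32 against septum, neither a call. With the slide as a block Nppa was called lower in RV in both comparisons. The mean centred level of the 6 atrial markers was highest on septum 1, at 2.50. Lists for endothelium, macrophages and smooth muscle had 0 calls, or 4 of 8, 1 of 6 and 3 of 4 between RV and LV with the slide as a block. In that fit Pecam1 (0.26) and Emcn (0.25) of endothelium were higher in RV, and Cdh5 (-0.25) and Kdr (-0.30) were lower. Csf1r of macrophages and Cnn1, Myh11 and Tagln of smooth muscle were higher. The 4 smooth muscle genes had a mean centred level of -0.05 to 1.45 in RV and -0.68 to -0.41 in LV. Among them Acta2 went the other way, at -0.31 from LV without a block, with all RV arrays below the LV arrays. The regions are bulk tissue, in which fewer cells of a type and less RNA per cell cannot be told apart.

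Between RV and LV, 3 of the 40 tested P450 genes were higher in RV and 2 were lower. The higher genes were Cyp2e1, Cyp1b1 and Cyp4b1, and the lower genes were Cyp2b9 and Cyp2b10. A call is an adjusted p below 0.05 in limma, adjusted over all probes tested. Of all 14650 genes, 3.14% were called higher and 1.84% lower in the same comparison, against 7.5% and 5.0% of the P450 genes. The lower calls include Cyp2b9, which passed the filter through LV and septum only. With the filter on all 3 regions it was not tested, and of 35 P450 genes 3 were called higher and 1, Cyp2b10, lower. In that fit 706 of 13645 genes were called in either direction. Among the 40 tested P450 genes, the RV arrays lay entirely above the LV arrays for 11 and entirely below for 2, where 9.17% and 13.4% of all genes did so. The 11 include Cyp2f2, which passed the filter through RV only, and the 2 include Cyp2b9. The median difference of the 40 genes was 0.10, with 27 of them above 0, and that of all genes was -0.05. Of the 14650 tested genes 39.4% were above 0. With no filter 43 of 101 P450 genes were above 0, where the median of all 22911 genes was -0.10 and their share above 0 was not computed. With no filter, and under the methods' analysis of variance, Cyp2e1 and Cyp1b1 were calls and Cyp4b1, Cyp2b9 and Cyp2b10 were not.

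**Figure D1:**
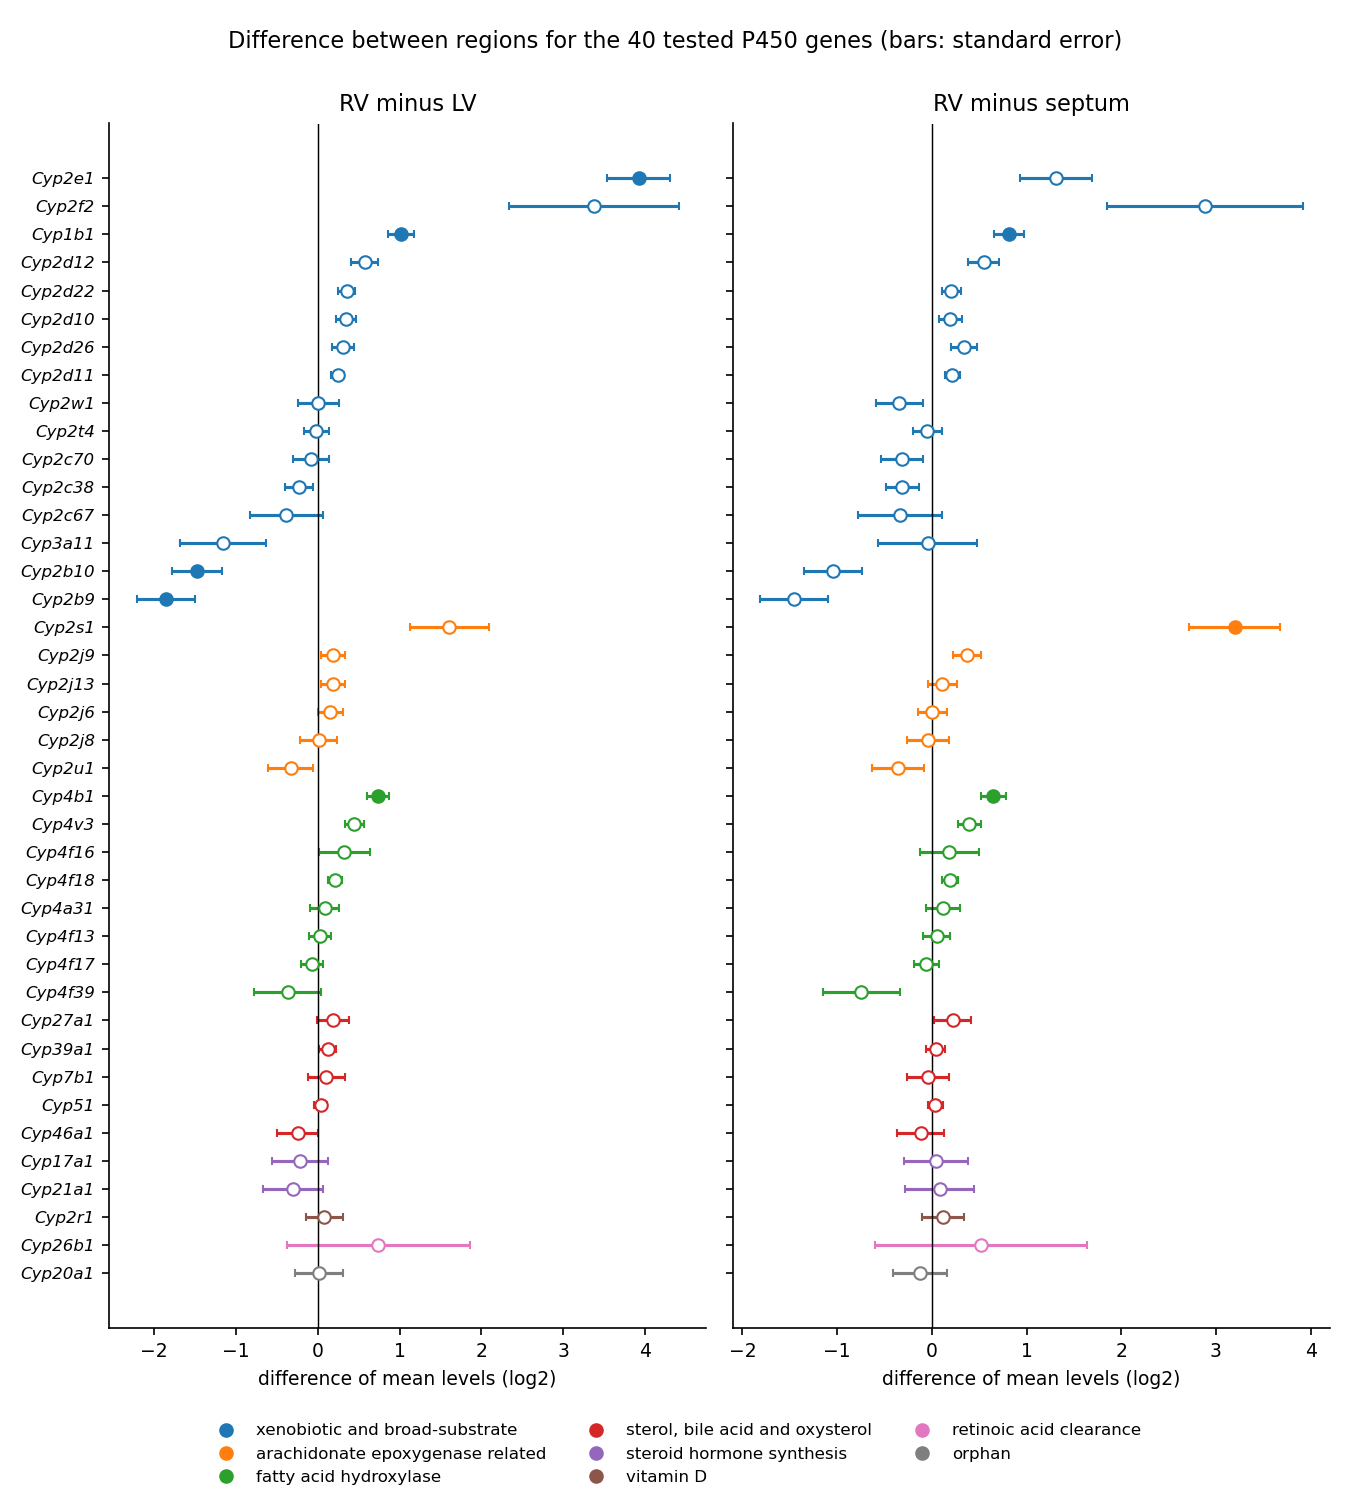
Difference of mean levels (log2, horizontal axis) between RV and LV (left) and between RV and septum (right) for the 40 tested P450 genes, grouped by function, with bars of 1 standard error and colours for the groups. Filled points have an adjusted p below 0.05: 5 in the left panel, from Cyp2e1 at 3.92 down to Cyp2b9 at -1.85, and 3 in the right panel, where Cyp2s1 was at 3.20. The horizontal scales of the panels differ.

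Cyp2e1, which oxidises ethanol, acetone and many small solvents, had the largest difference of the 40 genes between RV and LV. Its level on the RV arrays was 2.50, 1.84, 1.79 and 2.41. It was -2.51, -1.87 and -0.97 on the LV arrays, and 1.47, 0.35 and 0.63 on the septum arrays. The 3 regions did not overlap, and septum lay between the other regions. RV exceeded LV by 3.92 ± 0.38 (standard error), a factor of 15.1, with an adjusted p of 0.00248. The difference was 4.36 within slide 1 and 3.07 within slide 2 and passed the test in each, where the spread on slide 2 came from its 2 RV arrays. RV exceeded septum by 1.32 ± 0.38 (adjusted p = 0.139) and septum exceeded LV by 2.60 ± 0.41 (adjusted p = 0.217), neither a call in limma. The call between RV and LV held without any single array, with differences from 3.55 to 4.33. A second probe of Cyp2e1 was well above background on all RV and septum arrays and on no LV array, so for LV it gives only a bound. By that probe the RV level was at least 13.3-fold higher than that of LV. The probe passed the filter through RV and septum only. The fitted difference of its measured means, -0.03 in RV and -4.97 in LV, had an adjusted p of 0.00377. That value rests on LV signals that were not well above background, and it does not belong to the bound. This bound sets the mean of the RV arrays against, on each LV array, the lowest signal of any probe well above background there, or the probe's own signal where that was higher.

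Some adipocyte markers moved with Cyp2e1. All 9 genes of an adipocyte list were measured, and 5 of them (Adipoq, Cidec, Pck1, Plin1 and Retn) were higher in RV than in LV, while Fabp4 (-0.24), Lep (-0.15), Pparg (-0.19) and Lipe (0.14) did not pass the test. The mean centred level of the list was 0.73 to 1.15 on the RV arrays, -1.57 to -0.70 on the LV arrays and -0.52 to 0.30 on the septum arrays. Of 6 brown fat markers Ucp1, Elovl3 and Zic1 did not pass the filter. Cidea, Dio2 and Prdm16 did, with differences between RV and LV of -0.35, 0.75 and -0.01, and 0 of them were called. The part of adipose cells in the Cyp2e1 result was not tested.

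Cyp1b1, which hydroxylates oestradiol and polycyclic hydrocarbons, was higher in RV than in both other regions. Its RV levels were 0.21, 0.39, -0.34 and 0.23. The LV levels were -0.96, -0.77 and -0.98, and the septum levels -0.75, -0.60 and -0.74. All RV arrays lay above all others, RV 3 being the nearest to them. RV exceeded LV by 1.02 ± 0.16, a factor of 2.03 (adjusted p = 0.00963), and septum by 0.82 ± 0.16, a factor of 1.76 (adjusted p = 0.0341). Within slide 1 the differences were 1.16 and 0.97, both calls, and within slide 2 they were 0.92 and 0.68, neither a call. Against LV the call held without any single array. Against septum it held only without RV 3, with differences of 0.73 to 0.97 over the 10 fits that each left out 1 array.

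Cyp4b1, a hydroxylase of medium-chain fatty acids and foreign compounds, had RV levels of 2.47, 2.49, 2.01 and 2.38. On the LV arrays it was 1.59, 1.42 and 1.80, and on the septum arrays 1.74, 1.66 and 1.67. Again the RV arrays lay above all others. The difference was 0.73 ± 0.13 from LV, a factor of 1.66 (adjusted p = 0.0189), and 0.65 ± 0.13 from septum, a factor of 1.57 (adjusted p = 0.0422). Within slide 1 it was 0.97 and 0.78, and within slide 2 it was 0.40 and 0.52, calls on slide 1 only. The call against LV was lost without LV 1, LV 2 or RV 4, with differences of 0.64 to 0.84 over the 10 fits, and that against septum held only without RV 3 or LV 3, with differences of 0.60 to 0.76. Blocked on replicate number, the difference from septum was 0.63 and no longer a call (adjusted p = 0.0639). Fibroblast markers had differences of the same sign as Cyp1b1 and Cyp4b1: all 7 had a difference above 0 against both regions. Of these 7, 3 were called higher against LV and 1 against septum. The mean centred level of the fibroblast list was -0.44 to -0.22 in LV and -0.18 to 0.05 in septum. On the RV arrays it was 0.04, 0.15, 0.58 and 0.54, highest on RV 3, where Cyp1b1 and Cyp4b1 had their lowest RV levels. All 6 macrophage markers and all 10 mesothelial markers also had differences above 0 against both regions. The mesothelial list was at 1.94, 1.98, 0.48 and 1.32 on the RV arrays, and the adipocyte list at 1.15, 0.84, 0.73 and 1.15. Both were lowest on RV 3, as were Cyp1b1 and Cyp4b1. The macrophage list was at 0.16, 0.31, 0.21 and 0.17. Smooth muscle and endothelium lists were highest on RV 3, at 1.45 and 0.13. The part of these cell types in the Cyp1b1 and Cyp4b1 results was not tested.

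Cyp2b9 and Cyp2b10, enzymes that oxidise drugs and steroids, ran the other way. Cyp2b9 was at -5.04, -4.77, -3.51 and -4.29 on the RV arrays, at -2.06, -2.61 and -2.99 on the LV arrays, and at -2.61, -2.93 and -3.32 on the septum arrays. The signal was well above background on 1 of the 4 RV arrays and on all arrays of LV and septum, so the RV values lie mostly at the edge of what the arrays measured. Cyp2b9 passed the filter through LV and septum only, so no fold is given. The fitted difference of RV from LV was -1.85 ± 0.36 (adjusted p = 0.0247), and it was -0.83, still a call, with normexp background correction. Within slide 1 the difference was -2.57, a call, and within slide 2 it was -0.91, not a call. It stayed below the threshold in 5 of the 10 fits that left out 1 array, and was lost without RV 1, RV 2, RV 4, LV 1 or LV 2, with differences of -2.15 to -1.60 over the 10 fits.

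Cyp2b10 was at -2.80, -2.80, -1.88 and -2.71 on the RV arrays and well above background on all of them. The LV levels were -0.63, -0.89 and -1.71, and the septum levels -1.17, -1.46 and -1.88. All RV arrays lay below the LV arrays, while RV 3 overlapped septum. The difference from LV was -1.47 ± 0.31, or 0.361 of the LV level (adjusted p = 0.0339). Within slide 1 it was -2.04, a call, and within slide 2 -0.59, not a call. The call was lost without RV 1, RV 2, RV 4, LV 1, LV 2 or septum 2, with differences of -1.79 to -1.25 over the 10 fits, and in the fit blocked on replicate number (-1.42, adjusted p = 0.0559). The differences from septum were -1.45 ± 0.36 for Cyp2b9 (adjusted p = 0.0844) and -1.05 ± 0.31 for Cyp2b10 (adjusted p = 0.148), neither a call over both slides, though both were calls within slide 1. Cyp2b9 became a call against septum with the slide as a block (-1.47, adjusted p = 0.0497) and without RV 3 (-1.75). The 2 genes are close relatives, and whether their probes share signal could not be checked from the values.

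**Figure D2:**
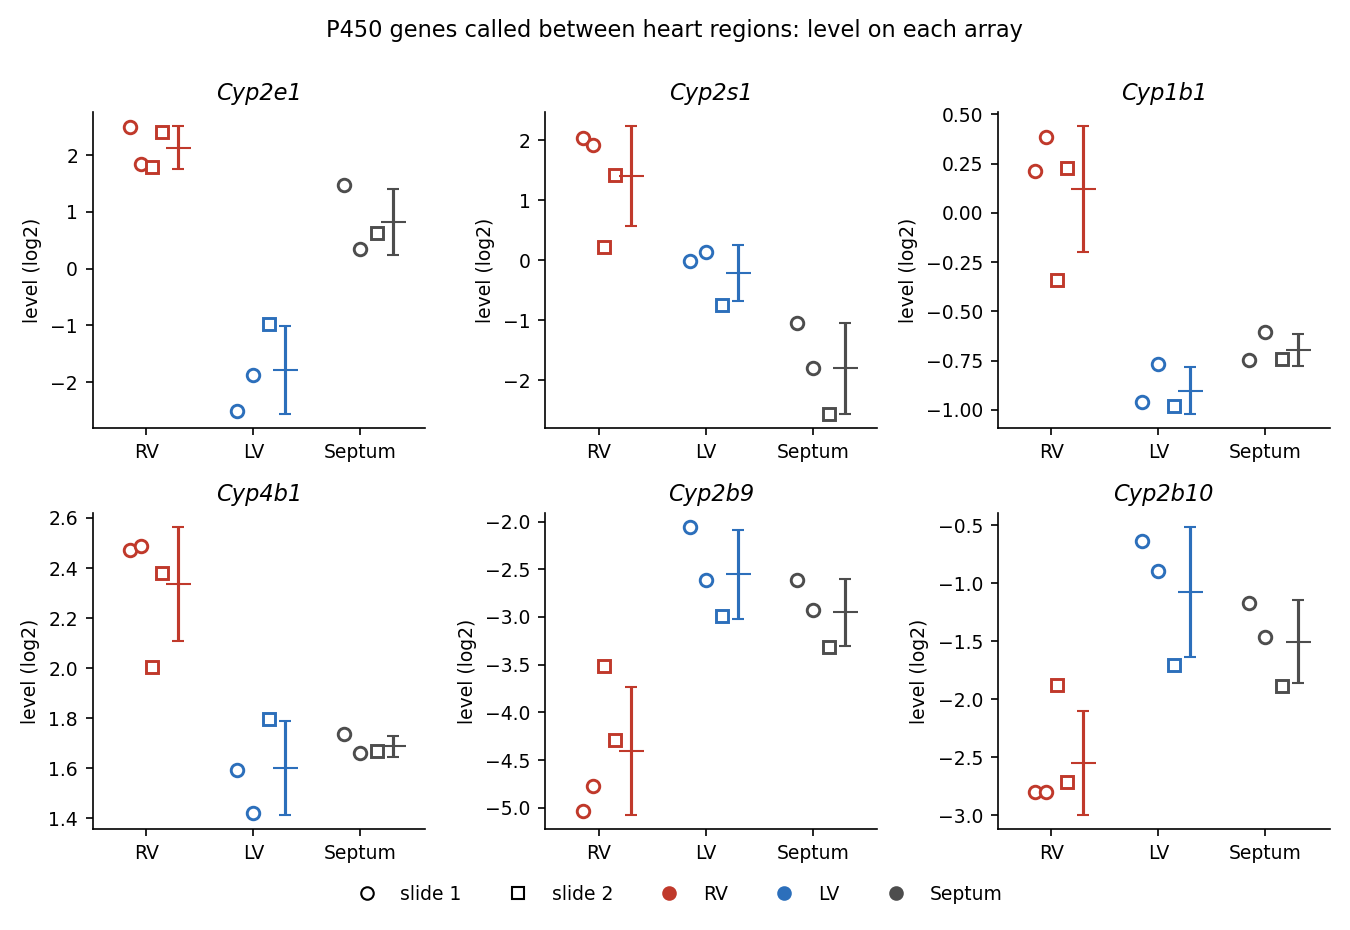
Level on each array (log2, relative to the 75th percentile of the array) of the 6 P450 genes called between regions. Circles are slide 1 and squares slide 2, bars show the mean and 1 SD beside each region (4 RV, 3 LV, 3 septum), and the vertical scales differ. The RV arrays lie above the LV arrays for Cyp2e1, Cyp2s1, Cyp1b1 and Cyp4b1 and below them for Cyp2b9 and Cyp2b10.

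Between RV and septum, 3 of the 40 P450 genes were higher in RV and 0 were lower: Cyp2s1, Cyp1b1 and Cyp4b1. Of all genes 1.68% were called higher and 1.02% lower, against 7.5% of the P450 genes called higher. At an unadjusted p below 0.05 there were 12 of the 40 P450 genes in either direction, beside 16.3% of all genes. Between RV and LV there were 14 of the 40, beside 22.8% of all genes. Both counts include Cyp2f2 and Cyp2b9, which did not meet the filter in all 3 regions. Under the methods' analysis of variance Cyp1b1 and Cyp2e1 were called between RV and septum and Cyp2s1 and Cyp4b1 were not, and with no filter there were 0 calls. The RV arrays lay entirely above the septum arrays for 10 P450 genes and entirely below for 1, Cyp2b9, where 6.95% and 9.04% of all genes did so. The 10 include Cyp2f2, which passed the filter through RV only, and Cyp2b9 passed it through LV and septum only. The comparison shares its RV arrays with the one against LV, so the values of Cyp1b1 and Cyp4b1 in both are not independent.

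Cyp2s1, an extrahepatic enzyme of epithelia that acts on retinoids and eicosanoids, was highest in RV and lowest in septum. Its RV levels were 2.04, 1.92, 0.22 and 1.43. The LV levels were -0.02, 0.14 and -0.74, and the septum levels -1.03, -1.80 and -2.56. The 3 regions did not overlap, although RV 3 was within 0.1 of LV 2. RV exceeded septum by 3.20 ± 0.48, a factor of 9.19 (adjusted p = 0.0137). Within slide 1 this difference was 3.40, a call, and within slide 2 it was 3.38 (adjusted p = 0.0963). The call was lost under the methods' analysis of variance, with no filter, and without septum 2 or septum 3, with differences of 2.82 to 3.59 over the 10 fits. RV exceeded LV by 1.61 ± 0.48 (adjusted p = 0.0987), which became a call with the slide as a block (1.78, adjusted p = 0.00571), with the replicate block (1.60, adjusted p = 0.0151) and without RV 3 (2.0). The difference of septum from LV was -1.59 ± 0.51 and not a call.

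Mesothelial markers moved with Cyp2s1. All 10 genes of a list for mesothelium, the lining that covers the epicardial surface, were measured. Against septum 8 of 10 were called higher in RV, among them Lrrn4, Upk3b and Msln, and against LV 1 of 10, Krt18. With the slide as a block these counts were 10 and 9. Their mean centred level was 1.94, 1.98, 0.48 and 1.32 on the RV arrays, 0.00, 0.05 and -0.84 on the LV arrays, and -0.77, -1.69 and -2.47 on the septum arrays. RV 3 was the lowest of the RV arrays and septum 3 the lowest of the septum arrays for both Cyp2s1 and the list. The part of mesothelial cells in the Cyp2s1 result was not tested.

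**Figure D3:**
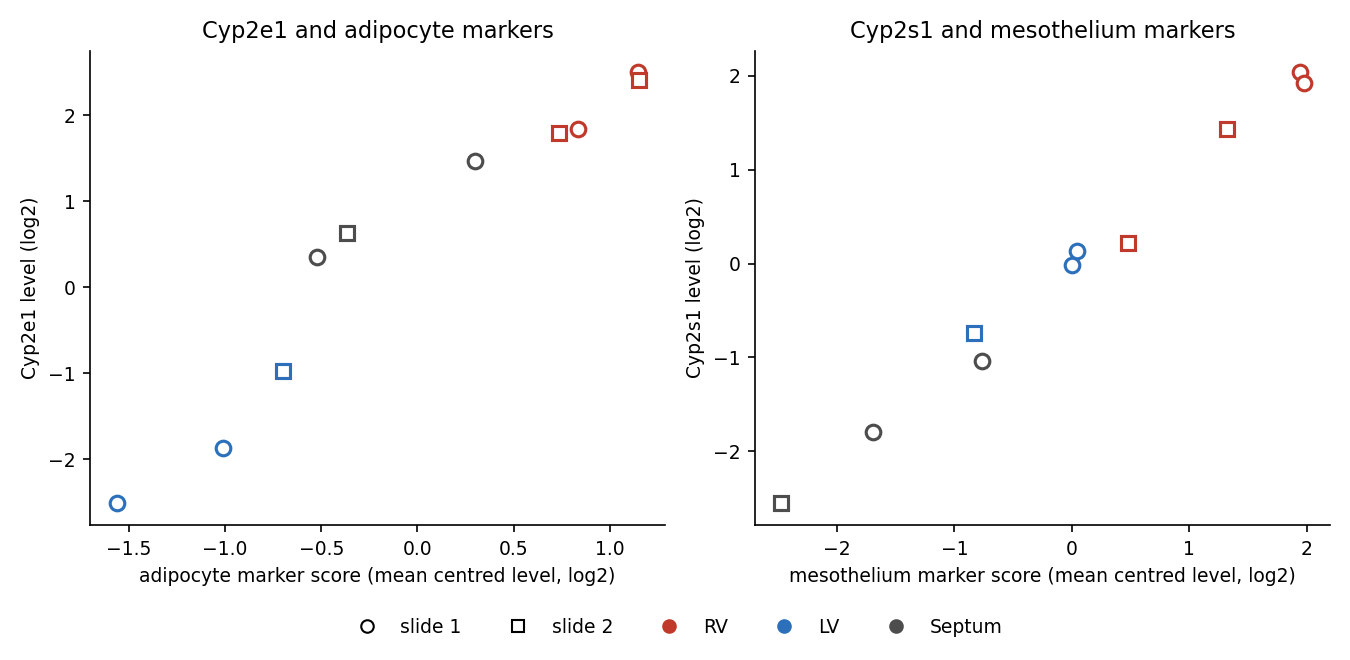
Level (log2) of Cyp2e1 against the mean centred level of 9 adipocyte markers (left), and of Cyp2s1 against that of 10 mesothelial markers (right), with 1 point per array. Circles are slide 1 and squares slide 2. The RV arrays lie at the upper right in both panels, with LV lowest on the left for Cyp2e1 and septum lowest for Cyp2s1.

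Between septum and LV, limma called 0 of the 40 P450 genes and 0% of all genes. At an unadjusted p below 0.05 there were 2 P450 genes, Cyp2e1 and Cyp2s1, and 2.91% of all genes. The methods' analysis of variance called 1, Cyp2e1, beside 0.642% of all genes. The moderated F test over the 3 regions called 5 P450 genes, Cyp2e1, Cyp1b1, Cyp2s1, Cyp4b1 and Cyp2b9, where 3.67% of all genes were called. Cyp2b9 passed the filter through LV and septum only, and with the filter on all 3 regions the count was 4.

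The slides differed for many genes. Slide 2 differed from slide 1 for 18 of the 40 P450 genes and for 45.3% of all genes. The largest shift was that of Cyp26b1, which clears retinoic acid: its level was 0.32 to 1.13 on the 6 arrays of slide 1 and 3.02 to 4.69 on the 4 arrays of slide 2 (difference 2.77, adjusted p = 0.000681). Region differences of Cyp26b1 were within this spread, at 0.74 ± 1.12 between RV and LV. The slide difference was -1.05 for Cyp2s1, -1.03 for Cyp2c67 and 0.82 for Cyp17a1, each a call. Of the 6 region-called genes only Cyp2s1 differed between slides at this threshold. Nothing in the labels says what else differed between the slides.

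**Figure D4:**
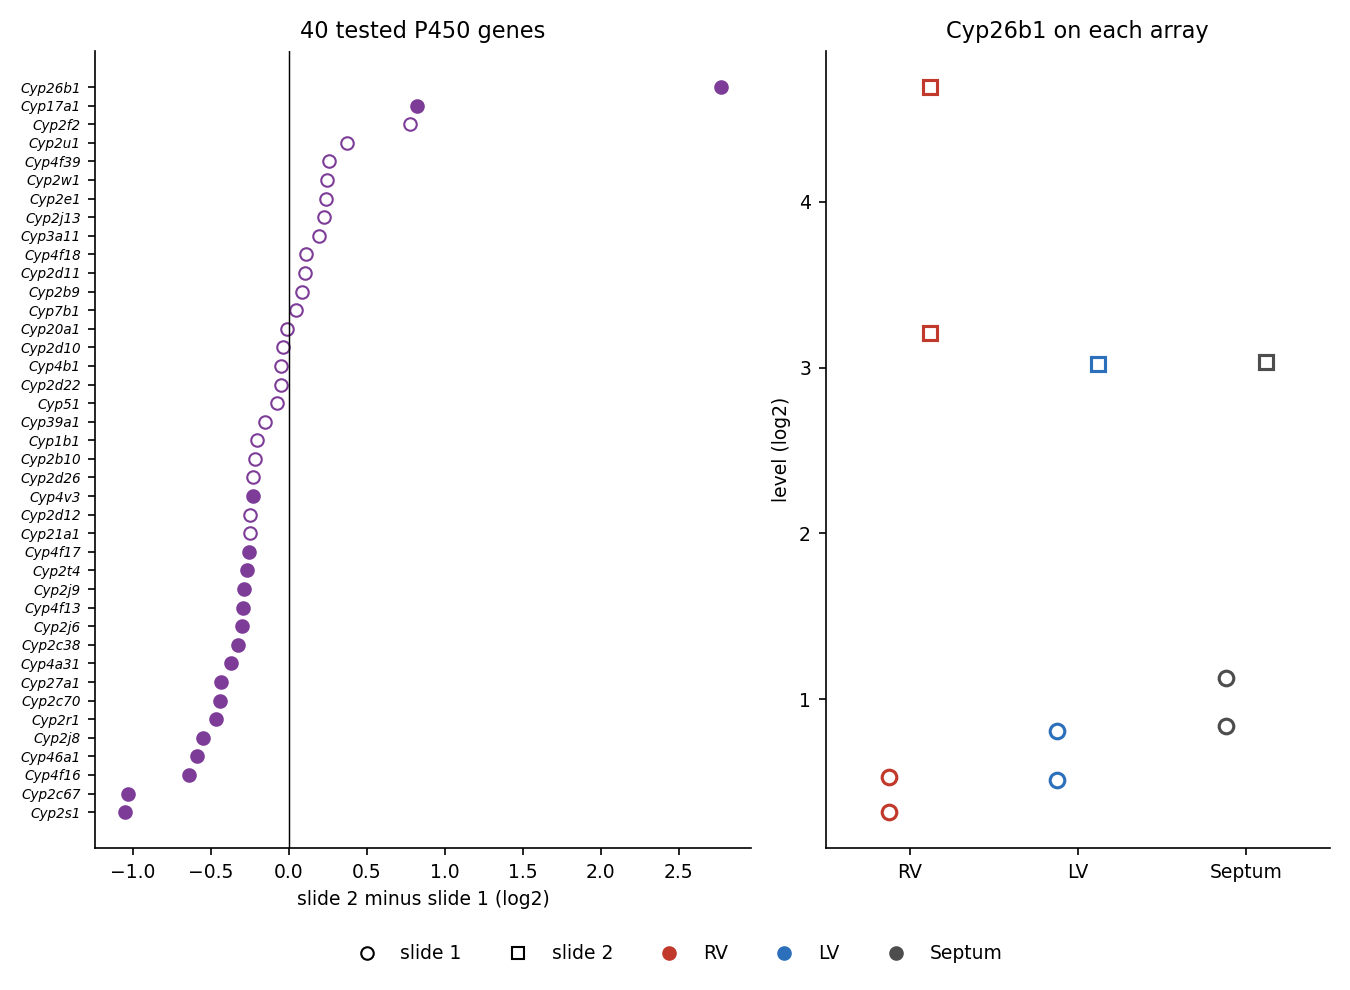
Left, difference between slide 2 and slide 1 (log2) of each of the 40 tested P450 genes in a fit with region and slide, with filled points at an adjusted p below 0.05 (18 genes). Right, level (log2) of Cyp26b1 on each array by region, with circles for slide 1 and squares for slide 2: the slide 2 arrays lie between 3.02 and 4.69, all above those of slide 1.

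With the slide as a block, 9 P450 genes were higher in RV than in LV and 2 were lower, where 8.82% of all genes were higher and 12.5% lower. Beside Cyp2e1, Cyp1b1, Cyp4b1 and Cyp2s1, the higher genes were Cyp4v3, Cyp2d12, Cyp2d22, Cyp2d11 and Cyp2d26, and the lower were again Cyp2b9 and Cyp2b10. Against septum 6 were higher (Cyp2s1, Cyp1b1, Cyp4b1, Cyp4v3, Cyp2d12 and Cyp2j9) and 1 lower (Cyp2b9), where 5.34% and 5.71% of all genes were. Cyp2b9, in both counts of lower genes, passed the filter through LV and septum only. With a replicate block, which also absorbs the slide, 9 P450 genes were called between RV and LV, beside 17.9% of all genes in either direction. That fit added Cyp2s1, Cyp4v3, Cyp2d10, Cyp2d11 and Cyp2d22 and left out Cyp2b10, and against septum it added Cyp4v3 (0.41, adjusted p = 0.0425).

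The Cyp2d genes, a tandem family on chromosome 15 that includes relatives of the human drug enzyme CYP2D6, had small differences that ran one way. All 5 tested members had a higher mean in RV than in LV and in septum, under each of 5 other scalings as well, while with no filter 7 of 10 did. Of the 5, 0 passed the test over all 10 arrays without a block. Cyp2d12 was -1.97, -2.06, -2.05 and -2.07 in RV, -2.50, -2.68 and -2.66 in LV, and -2.37, -2.32 and -3.06 in septum. The RV arrays lay above all others and close together. It exceeded LV by 0.58 ± 0.16 (adjusted p = 0.0847) and septum by 0.55 ± 0.16 (adjusted p = 0.149), and the former was a call without septum 3, on slide 1 alone and with only the 2 regions compared (0.58 in each). With normexp it was 0.33. The differences of Cyp2d22, Cyp2d10, Cyp2d26 and Cyp2d11 from LV were 0.36, 0.35, 0.31 and 0.25. These genes are similar in sequence, so their probes are not independent measurements, and a second probe of Cyp2d26 gave -0.06.

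Cyp4v3, which hydroxylates fatty acids in the endoplasmic reticulum of many tissues, was 0.15, 0.15, -0.08 and 0.00 in RV, -0.41, -0.26 and -0.51 in LV, and -0.11, -0.34 and -0.57 in septum. RV lay above the other regions on every array, by 0.45 ± 0.12 from LV (adjusted p = 0.0726) and by 0.40 ± 0.12 from septum (adjusted p = 0.157). Of the 8 tested Cyp4 genes, 6 had a higher mean in RV than in LV, with a median difference of 0.15, and 1 was called. Cyp4f13, Cyp4f16, Cyp4f17, Cyp4f39 and Cyp4a31 ranged from -0.36 to 0.33 against LV. The lower end was that of Cyp4f39, which passed the filter through septum only. For Cyp4f18, which inactivates leukotriene B4 in leukocytes, the brightest probe differed by 0.22 from LV (adjusted p = 0.199). A dimmer probe was well above background on all 4 RV arrays but on 1 array each of LV and septum, and its differences are not given.

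Cyp2f2, an enzyme of lung club cells that activates naphthalene, had a wide spread. Its levels were -1.25, -2.20, -1.30 and -0.82 in RV, -6.56, -5.47 and -2.25 in LV, and -2.28, -4.90 and -5.64 in septum. All RV arrays were above all others, but LV 3 and septum 1 came close to RV 2. The signal was well above background on all 4 RV arrays, on 1 LV array and on 1 septum array. The difference was 3.37 ± 1.03 from LV (adjusted p = 0.108) and 2.88 ± 1.03 from septum (adjusted p = 0.242). The gene passed the filter through RV only, so no fold is given.

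The chromosome 7 cluster held genes with differences of opposite sign side by side. In the order of the GRCm38.p6 annotation, 13 protein-coding Cyp2 genes run from Cyp2s1 to Cyp2t4, with 5 other protein-coding genes among them. All 13 were on the array, 5 passed the filter and 8 did not. Cyp2s1, at one end, was higher in RV than in septum, and Cyp2b10, the next protein-coding Cyp2 gene, was lower in RV than in LV. In neither comparison were both of them called. Cyp2b13, which follows, was above background on no array, and Cyp2b9 after it was again lower in RV than in LV. Cyp2b9 passed the filter through LV and septum only. At the other end Cyp2f2, which passed the filter through RV only, had differences above 0. Its neighbour Cyp2t4 was at -0.01 ± 0.15 against LV and -0.05 ± 0.15 against septum. Cyp2e1 is on the same chromosome but outside this cluster.

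**Figure D5:**
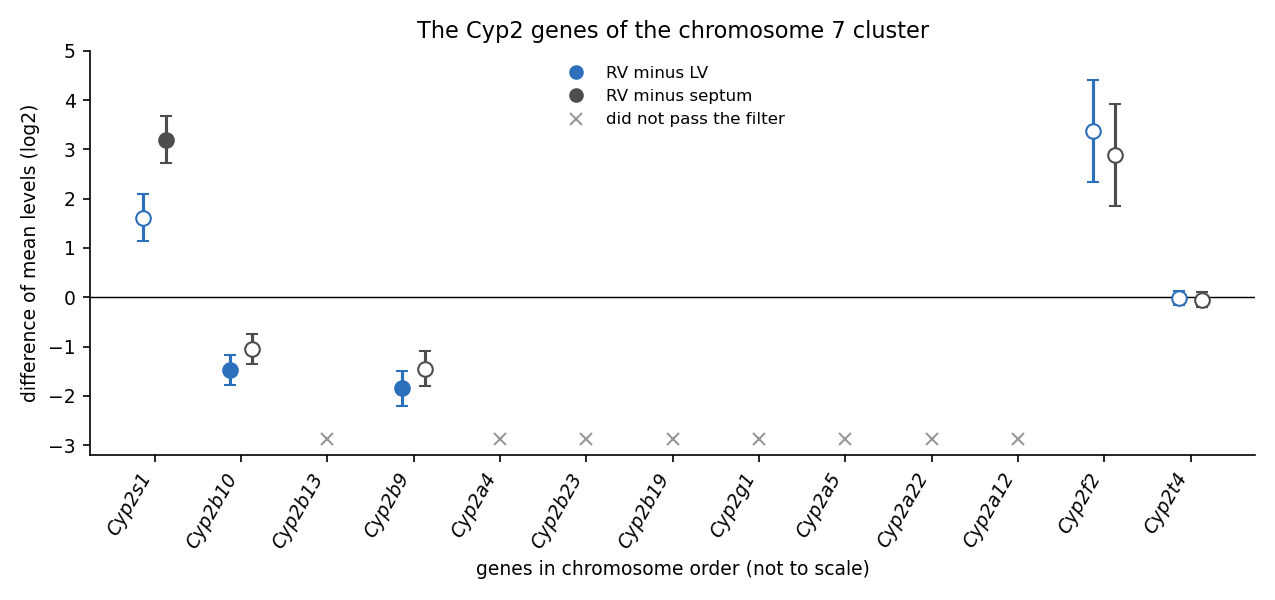
Difference of mean levels (log2) between RV and LV (blue) and between RV and septum (dark grey) for the 13 protein-coding Cyp2 genes of the chromosome 7 cluster, in chromosome order and not to scale. Bars are 1 standard error, filled points have an adjusted p below 0.05, and crosses along the foot mark the 8 genes that did not pass the filter. Cyp2s1 lies above 0, and Cyp2b10 and Cyp2b9 lie below 0, with a gene that did not pass the filter between them.

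Among the other enzymes of foreign compounds, Cyp2c38, Cyp2c67, Cyp2c70 and Cyp2w1 ranged from -0.38 to 0.01 between RV and LV, and 0 of them were called. Cyp3a11, the main steroid and drug hydroxylase of mouse liver, was at -3.54, -3.86, -3.36 and -3.07 in RV, -3.33, -0.77 and -2.83 in LV, and -3.57, -3.73 and -2.93 in septum. LV 2 stood apart from all other arrays, and the difference of RV from LV was -1.15 ± 0.52 (adjusted p = 0.263). Cyp3a11 was well above background on 3 of 4 RV, 3 of 3 LV and 2 of 3 septum arrays, so it passed the filter through LV only. Cyp21a1, the steroid 21-hydroxylase, was also highest on LV 2, at -0.26 against -2.08 to -1.48 on the other 9 arrays.

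The arachidonate epoxygenases gave small differences apart from Cyp2s1. Cyp2j6, Cyp2j8, Cyp2j9 and Cyp2j13 ranged from 0.01 to 0.19 between RV and LV and from -0.04 to 0.37 between RV and septum. Cyp2j9 was the largest of these against septum (0.37 ± 0.15, adjusted p = 0.303). Cyp2u1, a hydroxylase of long-chain fatty acids, was at -0.33 ± 0.27 against LV.

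The genes of sterol, steroid, vitamin D and retinoid metabolism had 0 calls between regions. Cyp51, which demethylates lanosterol in cholesterol synthesis, varied least of the sterol genes, with levels of -0.59 to -0.37 over the 10 arrays and a difference of 0.04 ± 0.08 from LV. Cyp27a1, Cyp39a1, Cyp7b1 and Cyp46a1, hydroxylases of cholesterol and its oxysterols, ranged from -0.24 to 0.19 against LV. Cyp17a1, the steroid 17-hydroxylase, was at 2.95 to 4.28 with -0.21 ± 0.34 against LV. Cyp2r1, the vitamin D 25-hydroxylase, was at 3.52 to 4.46 with 0.08 ± 0.22, and the orphan Cyp20a1 was at -1.50 to -0.17 with 0.02 ± 0.29.

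The 61 genes that did not pass the filter were not tested. Of these, 31 were well above background on no array, among them Cyp7a1 and Cyp8b1 of bile acid synthesis, Cyp11a1, Cyp11b2 and Cyp19a1 of steroid hormone synthesis, Cyp24a1 and Cyp27b1 of vitamin D metabolism, and Cyp1a2, a marker enzyme of liver. The other 30 were above background on some arrays only. Cyp1a1, which the aryl hydrocarbon receptor induces, was so on 3 of 4 RV, 2 of 3 LV and 0 of 3 septum arrays. Cyp26a1, the main retinoic acid hydroxylase of the embryo, was so on 3 RV, 0 LV and 2 septum arrays. Most of the unmeasured genes were foreign-compound enzymes: 36 of 52 did not pass, against 13 of 21 Cyp4 genes and 2 of 8 epoxygenase genes.

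A list of 51 genes that serve P450 enzymes was examined beside them, of which 50 were on the array and 44 passed the filter. Between RV and LV 3 were higher and 3 were lower, and between RV and septum 1 was higher and 1 was lower, beside the shares of all genes given for these comparisons (3.14%, 1.84%, 1.68% and 1.02%). The 6 calls against LV became 1 with median scaling, 1 with no filter, 11 with the slide as a block, 10 with the replicate block, and 2 and 0 within slides 1 and 2. They numbered 3 without LV 1, 1 without LV 2, 2 without LV 3, 3 without RV 4 and 4 or 5 when any one of the other arrays was left out. The 2 calls against septum became 1 without any single array, with median scaling and with no filter, 7 with the slide as a block, 6 with the replicate block, 5 under the methods' analysis of variance and 0 within slide 2. Pgrmc1, a haem-binding partner of P450 enzymes, exceeded its LV level in RV by 0.43 ± 0.06 (adjusted p = 0.00895) and its septum level by 0.32 (adjusted p = 0.0401). Ephx1, the microsomal epoxide hydrolase, was higher than in LV by 0.48 ± 0.09 (adjusted p = 0.0197). Ptgis, the prostacyclin synthase and itself a P450 enzyme, was higher by 1.31 ± 0.25 (adjusted p = 0.0221). Ahrr, a repressor of the aryl hydrocarbon receptor that controls Cyp1 genes, was lower in RV, with a difference of -1.04 ± 0.13 from LV (adjusted p = 0.00377) and of -1.09 ± 0.13 from septum (adjusted p = 0.00479). The receptor Ahr itself was at -0.14 against LV (adjusted p = 0.523). Cpox of haem synthesis (-0.76, adjusted p = 0.0408) and the retinoid X receptor Rxrg (-0.29, adjusted p = 0.0356) were lower in RV than in LV. Por, the common electron donor, was at 0.22 ± 0.19 (adjusted p = 0.578). Nr1i2, a receptor that controls drug-metabolising genes in liver, did not pass the filter.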

How the data were processed

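Total RNA of RV, LV and septum was labelled with Cy3 and hybridised to SurePrint G3 mouse arrays. The authors deposited intensity files, written by Feature Extraction 11.5.1.1 of Agilent according to their headers and the submitters' processing notes, in which the background of each spot had been subtracted and spots flagged. They also deposited a table of log2 values, made with GeneSpring according to the methods, which agree within 0.05 with those computed here once a constant is removed from each array, for 100% of 56605 probes.

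Each level is log2 of the processed intensity less the 75th percentile on that array, after control spots and the 56 to 128 spots flagged as outliers on an array had been removed, with repeated spots of 1 probe averaged. The processed signals of RV array 1 stand rounded in its file. The filter was that all arrays of 1 or more regions were well above background, and 30234 probes (53.4%) met it. Names came through RefSeq accessions from a gene table of assembly GRCm38.p6, which matched 32994 probes (58.3%). The build of the array design differs, so no coordinates are given other than those of the RefSeq promoters. A gene was read by its brightest kept probe. Of the 40 tested P450 genes 3 had several kept probes. Probes of related genes may share signal, and probe sequences were not used here. The number of arrays limits the precision.

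The test was that of limma 3.58.1 in R 4.3.3, with 1 mean per region over all 10 arrays, moderated two-sided tests (2.46 prior degrees of freedom) and Benjamini-Hochberg adjustment over all probes tested, with calls at an adjusted p below 0.05. The analysis of variance with Tukey's test that the methods describe was an alternative here, since with 3 or 4 arrays a region limma's pooled spread was preferred. Marker scores are means, over the measured genes of a list, of levels centred on their mean over the 10 arrays. Other alternatives were quantile normalization, median scaling, the 75th percentile over probes above background on all arrays, normexp with an offset of 50, the authors' table, other filters, the mean over probes, blocks for slide and for replicate number, each slide alone, only the 2 regions compared, and each array left out. Normexp used the median signal of each spot, because a mean signal is not among the columns used here. Samples with the same replicate number deviated together (correlations of 0.359 to 0.645 in all 9 pairs, after region means), but they also shared a slide, and the labels do not say what a number marks. The tests were checked on simulated data with independent noise on each array. Those data held no slide or replicate effect, so the check does not cover such effects.

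Every gene called in a test was named with its level on each array, together with up to 3 uncalled genes per pair of regions, those with the largest difference among genes measured on every array of both regions and not overlapping, and the other tested genes by function. Cyp2f2, Cyp26b1, Cyp3a11, Cyp21a1 and Cyp4f18 were given in more detail after their values were seen. The members, the lists and the motifs were chosen with earlier results of these data known.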

Additional observations from a re-analysis of the deposited data

Results flagged for a closer look

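On the 4 RV arrays, 3 of the 40 tested P450 genes had an array far from the others, by the gap between an extreme value and its neighbour over the whole range. Cyp2b10 was at -1.88 on RV array 3, against -2.80 to -2.71 on the other RV arrays. Cyp2d12 was at -1.97 on RV array 1, against -2.07 to -2.05, and Cyp2d26 was at -1.19 on RV array 4, against -1.08 to -1.06. Chance flags about 1 in 20 groups with this check, which was not applied to the groups of 3. The ranges of Cyp2d12 and Cyp2d26 were small, whereas RV array 3 narrowed the Cyp2b10 difference from LV. Without that array the difference was -1.69.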

How the results depend on the processing

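Quantile normalization, median scaling, the 75th percentile over probes above background on all arrays, normexp and the authors' table each called the same 5 P450 genes between RV and LV and the same 3 between RV and septum. Median scaling called 75.4% of all genes called between RV and septum as higher, against 62.3% in the limma fit described above, and the percentile over probes above background on all arrays 77.1% against 63.1% between RV and LV. The counts of called P450 genes moved by over 1.5 times in these cases, and the cause was not tested. With no filter the counts were 2 between RV and LV, 0 between RV and septum and 1 among the 3 regions, where 22911 genes in place of 14650 were tested. With the slide as a block they were 11, 7 and 9. Slide 1 alone gave 5 between RV and septum, and slide 2 alone, with 1 array each of LV and septum assumed to vary like RV, gave 1 between RV and LV and 2 among the 3 regions. The methods' analysis of variance gave 2 between RV and LV, 1 between septum and LV and 2 among the 3 regions. With only the 2 regions compared, the counts were 3 between RV and LV and 1 between RV and septum. In a paired fit with a replicate block, 9 genes were called between RV and LV. That replicate block gave 3 between RV and septum, 0 between septum and LV and 4 among the 3 regions, and apart from the changes given above it changed no other call between RV and another region. Leaving out 1 array at a time gave 2 to 6 calls between RV and LV, 0 to 4 between RV and septum, 0 to 0 between septum and LV and 1 to 6 among the 3 regions. Of 454 values of single genes under an alternative, 377 kept their side of the threshold, 58 lost it, 19 gained it and 0 changed direction. Depth is not defined for arrays, and Cyp2b9 in RV and Cyp2f2 in LV and septum were limited by signal over background. Cyp3a11 in RV and septum, Cyp4f39 in RV and LV, and Cyp2j13 in LV were also not well above background on every array.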
